A study of Mus musculus with 6 samples.

Results

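The microRNAs mmu-miR-200a, mmu-miR-200c, mmu-miR-183, mmu-miR-203, mmu-miR-205 and mmu-miR-375, best known from epithelial cells, were followed in sorted mouse osteoclasts (the prefix for mouse is left out below). They were chosen by name from the deposited miRNA table, taking the guide strands only, and make up 6 of its 709 assays. All 6 had a value in every sample, as did 95 of the 709 assays (13.4%). The other 614 assays were Null, the authors' entry for no value, in all 6 samples, and 0 were Null in only some.

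The samples are bone marrow osteoclasts, isolated by magnetic sorting as positive for OSCAR and CTR, 2 surface proteins of the osteoclast lineage. Per the labels, 3 samples came from mice in which the miRNAs of osteoclasts had been knocked down (OCmiR-KD, called knockdown below) and 3 from control mice (OCmiR-Intact, called intact). The allele, agent or promoter behind the knockdown, the strain and the age were not given in the sources used here. According to the design text, RNA of 3 mice per group was pooled, so the spread behind the p-values may be a technical one between these samples.

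MicroRNAs are short RNAs that pair with messenger RNAs mainly through their seed, bases 2 to 8, and repress them. The miR-200 family (miR-200a, miR-200b, miR-200c, miR-141 and miR-429) holds cells in an epithelial state through repression of the transcription factors Zeb1 and Zeb2. miR-203 and miR-205 are typical of skin and other stratified epithelia, miR-375 of pancreatic islets and other endocrine and epithelial cells. The cluster of miR-183, miR-96 and miR-182 is known from sensory organs and from many epithelial tumours. Osteoclasts arise from the monocyte and macrophage lineage of the blood, which is not an epithelial one.

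The sequences of the 6 miRNAs and of their 5 cluster partners are given because seeds and near-identical letters decide which assays could stand in for each other. They are the sequences deposited with the assays, 5′ to 3′, with the seed in capitals. First come miR-200a and miR-141, which share a seed, then the 3 miRNAs with the other miR-200 seed, then the miR-183 cluster and the 3 single miRNAs.
miR-200a: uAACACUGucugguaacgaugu
miR-141: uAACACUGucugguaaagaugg
miR-200c: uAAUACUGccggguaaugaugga
miR-200b: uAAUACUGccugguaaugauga
miR-429: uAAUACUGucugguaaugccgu
miR-183: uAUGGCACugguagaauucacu
miR-96: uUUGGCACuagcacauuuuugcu
miR-182: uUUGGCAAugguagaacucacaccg
miR-203: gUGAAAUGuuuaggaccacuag
miR-205: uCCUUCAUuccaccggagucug
miR-375: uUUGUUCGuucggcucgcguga

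The miR-200a sequence differs from miR-141 by 2 substitutions, C17A and U22G, counted from the 5′ end of miR-200a. miR-200c lies 2 edits from miR-200b. The other 4 have no close relative on the array, since the nearest assay lies 7 edits away for miR-183, 9 for miR-203, 8 for miR-205 and 8 for miR-375. No other assay on the array shares the seed of any of these 4.

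All 11 sequences were found in RefSeq miRNA hairpins of the mouse build GRCm38.p6. Mature miR-200a lies at chr4:156054911-156054932 on the minus strand, within the span of the long non-coding RNA gene Gm13648. miR-200c lies at chr6:124718324-124718346 (minus strand), where the table used here has no other gene, and its nearest protein-coding gene is Phb2. miR-183 lies at chr6:30169711-30169732 (minus strand) within the span of the long non-coding gene Mirc35hg. miR-203 lies at chr12:112130927-112130948 (plus strand), where the RefSeq miRNA gene Gm51289 overlaps it, with Aspg as the nearest protein-coding gene. miR-205 lies at chr1:193507503-193507524 (minus strand) within its host gene Mir205hg. miR-375 lies at chr1:74900661-74900682 (minus strand), next to Cfap65. The gene table gives gene spans without exons, so exonic and intronic positions were not assigned.

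Of the 6 miRNAs, 3 belong to clusters whose hairpins are transcribed together, and in each cluster the listed miRNA was measured while its partners were Null. In the cluster on chromosome 4, the miR-200a hairpin lies 695 bp after that of miR-200b and 908 bp before that of miR-429. miR-200a had values in 6 of 6 samples, and miR-200b and miR-429 in 0 of 6. On chromosome 6 the miR-141 hairpin starts 336 bp after that of miR-200c, and miR-141 was Null in 6 of 6 samples. In the miR-183 cluster, miR-96 follows after 116 bp and miR-182 a further 3453 bp on. Both were Null in 6 of 6 samples. The Ct table and the normalized table have the same Null entries for all of these. Whether Null stands for a late product or for none was not given in the sources used here, and no Ct limit can be put on these 5 partners.

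**Figure D1:**
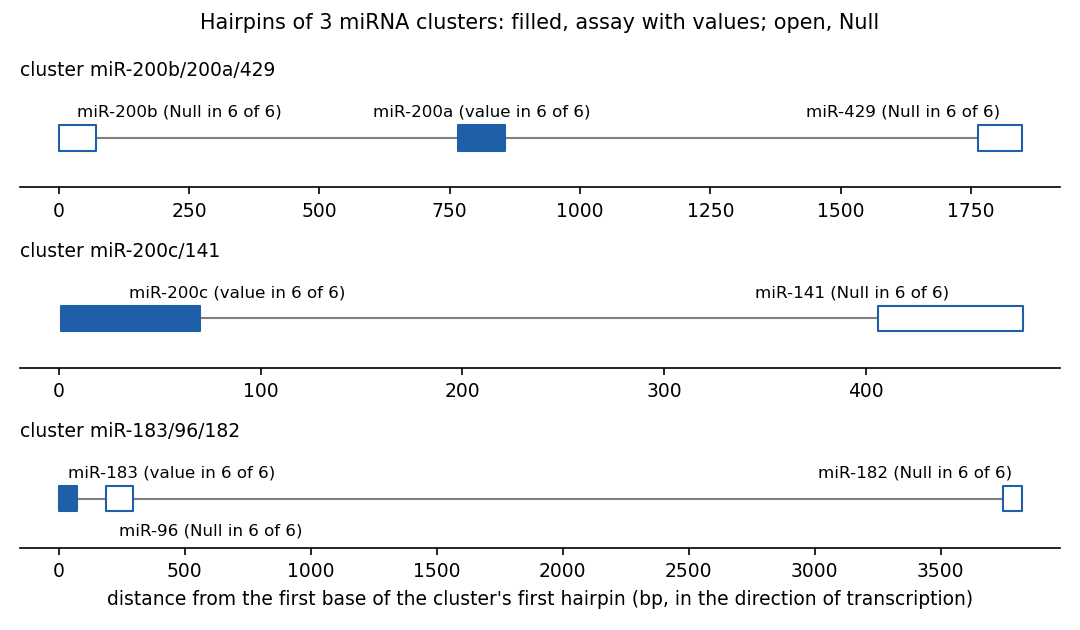
Hairpins of the clusters that hold miR-200a, miR-200c and miR-183, drawn to scale by distance in bp from the first base of each cluster's first hairpin. Filled boxes mark the 3 miRNAs with a value in all 6 samples, and open boxes the 5 partners that were Null in all 6.

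A Null entry was the usual outcome on this array, at 86.6% of all 709 assays, so 5 Null partners are not by themselves a result about these clusters. Among assays other than star strands, 15.3% had values. Of 37 other measured assays with a partner on the array, defined as a hairpin on the same strand within 10 kb, 25 had at least 1 measured partner, against 0 of 3 here. The 12 without one include miR-92a with 9 Null partners and miR-192 with Null miR-194. Counted by pairs of assay and partner, the partner was measured in 44 of 162 pairs of those 37 assays, against 0 of 5 here. These counts cover the 447 of 590 assays other than star strands that were located in RefSeq hairpins. Neither difference was tested.

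The opposite arms of these hairpins were also Null. The array holds 6 star-strand assays of the 11 miRNAs, for miR-200a, miR-200b, miR-200c, miR-141, miR-183 and miR-203, and 0 of 6 had a value. Of all 119 star-strand assays 95.8% were Null, so this share is close to that of the class. The RefSeq hairpin of Mir200a is shown with both assayed arms in capitals, first the Null star strand and then the measured guide, to place the pair of assays on 1 precursor.
Mir200a hairpin: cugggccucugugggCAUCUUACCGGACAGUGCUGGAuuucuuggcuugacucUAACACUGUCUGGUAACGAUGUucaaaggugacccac

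The level of a miRNA below is minus delta Ct. Delta Ct is the threshold cycle (Ct) of the assay minus that of the reference, the small nuclear RNA U6, read on the same plate in the same sample, so the level is in log2 units above U6 if each cycle doubles the product. Primers differ between assays, and an order of miRNAs by level is one of assay readings. In these whole-sample readings, fewer cells carrying a miRNA and less of it per cell cannot be told apart. On plate 1, which holds all 6 miRNAs, U6 itself crossed at 29.7 ± 0.547 cycles in the intact group and at 30.3 ± 0.906 cycles in the knockdown group (SD, n = 3 each).

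One property of the deposited values limits every difference below. On the linear scale, with U6 of plate 1 at 1, the 3 knockdown values of each of the 6 miRNAs average 1 to within 0.001. For miR-200a they are 1.89, 0.425 and 0.690. For miR-205 they are 0.204, 1.36 and 1.44, and for miR-375 they are 1.01, 1.72 and 0.271. The same holds for 88 of the 95 measured assays in knockdown samples and for 0 of 95 in intact samples, where the means of the 6 run from 15.4 to 930.2. The knockdown mean is therefore no measurement of its own. Adding 1 constant to all 6 values of an assay would fix it and leave the differences between samples as they were, and whether the authors did so was not given in the sources used here. Intact levels, and the order of the miRNAs by them, carry the same doubt.

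**Figure D2:**
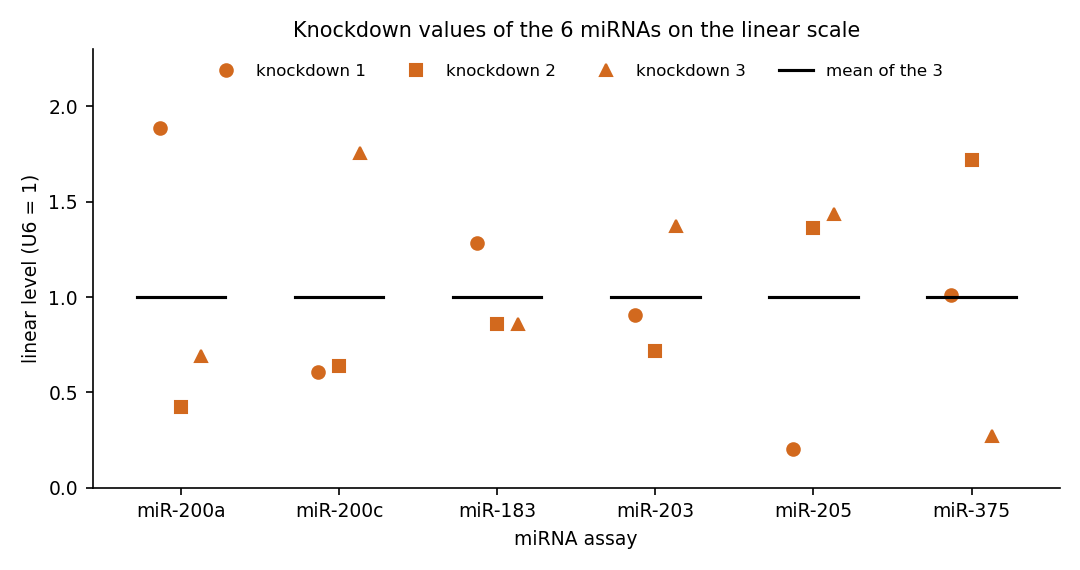
Linear levels relative to U6 (U6 = 1) of the 6 miRNAs in the 3 knockdown samples, one symbol per sample, with their mean as a black bar. The miR-205 points spread from 0.204 to 1.44, while every mean stands at 1.

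All 6 miRNAs had lower deposited levels in knockdown than in intact osteoclasts, and all 6 passed the test (limma, Benjamini-Hochberg adjusted p under 0.05). So did 84.2% of the 95 assays tested, which puts 6 of 6 near the background. The median difference of the 6 was -6.36 log2 units, against -4.54 over all 95 assays and -4.44 over the 89 others. In each of the 6, the lowest intact sample lay above the highest knockdown sample, as it did in 82.1% of the 95 assays. The 80 lower assays all belong to those 88 whose knockdown mean is 1, and the tests describe the deposited values only.

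**Figure D3:**
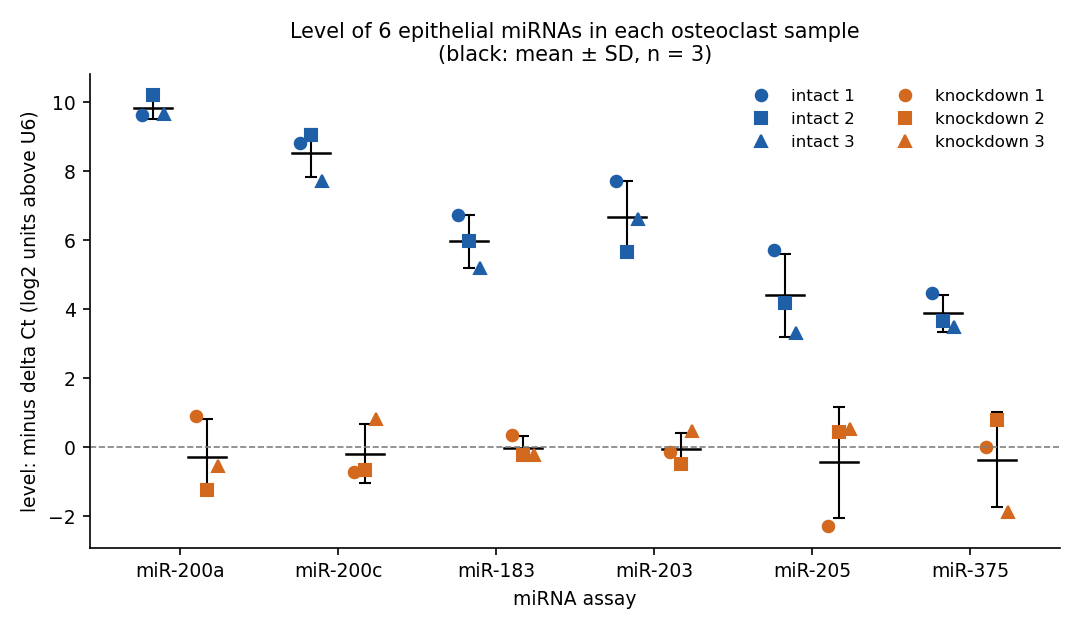
Level (minus delta Ct, log2 units above U6) of each of the 6 miRNAs in the 3 intact (blue) and 3 knockdown (orange) samples, with mean and SD in black. Every intact point lies above every knockdown point of the same miRNA, and the knockdown points lie around 0.

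In the miR-200 family, both measured members had the wide gaps. The level of miR-200a was 9.64, 10.21 and 9.67 in intact samples 1 to 3 and 0.92, -1.24 and -0.54 in knockdown samples 1 to 3. The intact values lay close together, the knockdown values spread over 2.15 log2 units, and the groups were 8.72 log2 units apart at their nearest samples. The means were 9.84 ± 0.32 and -0.29 ± 1.10 (SD, n = 3 each), a difference of -10.12 (SE 0.65, limma adjusted p = 1.5e-05). The authors' deposited table gives a fold of 1114.4, intact over knockdown, where the median of that table is 23.3.

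miR-200c, which has the other seed of the family, stood at 8.81, 9.04 and 7.73 in intact samples and at -0.72, -0.65 and 0.81 in knockdown samples. Intact sample 3 was the lowest of its group and knockdown sample 3 the highest, with 6.91 log2 units between the groups. The means were 8.53 ± 0.70 and -0.19 ± 0.87 (SD, n = 3 each), a difference of -8.71 (SE 0.64, limma adjusted p = 2.2e-05), and the authors' deposited table gives a fold of 419.5. All 3 intact samples had a higher reading of miR-200a than of miR-200c, by 0.82, 1.16 and 1.94 log2 units, a comparison in which U6 cancels. In knockdown samples the same difference was 1.64, -0.59 and -1.35. The lack of a common sign there follows from the equal linear knockdown means of the 2 assays, described above.

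miR-183, reported to favour osteoclast formation, had levels of 6.73, 5.98 and 5.19 in intact samples and 0.36, -0.22 and -0.22 in knockdown samples. An identical delta Ct of 0.222 stands in knockdown samples 2 and 3, which are identical in 6 of the 95 assays. Its means were 5.97 ± 0.77 and -0.03 ± 0.34 (SD, n = 3 each), a difference of -6.00 (SE 0.56, limma adjusted p = 3.9e-05) and a fold of 63.8 in the authors' deposited table.

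Of the 6, the 2 miRNAs of stratified epithelia varied most between intact samples. miR-203 stood at 7.73, 5.66 and 6.63 in intact samples, with sample 2 the lowest, and at -0.14, -0.48 and 0.46 in knockdown samples. Its means were 6.67 ± 1.03 and -0.05 ± 0.47 (SD, n = 3 each), a difference of -6.73 (SE 0.65, limma adjusted p = 3.9e-05). The authors' deposited table gives a fold of 105.8.

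miR-205 stood at 5.70, 4.18 and 3.32 in intact samples and at -2.29, 0.44 and 0.52 in knockdown samples. Knockdown sample 1 lay far under the other 2, and the nearest samples of the groups were 2.80 log2 units apart. The means were 4.40 ± 1.21 and -0.44 ± 1.60 (SD, n = 3 each), a difference of -4.84 (SE 0.95, limma adjusted p = 0.0018), with a fold of 28.7 in the authors' deposited table. Without knockdown sample 1 the difference was -3.92, and without intact sample 1 it was -4.19. On the linear scale the same values are 52.1 times U6 in intact sample 1 and 9.97 times U6 in intact sample 3.

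miR-375 had the lowest intact mean of the 6. It stood at 4.48, 3.67 and 3.49 in intact samples and at 0.02, 0.78 and -1.88 in knockdown samples. The groups did not overlap, with 2.71 log2 units between them, and knockdown sample 3 was the lowest of all. Its means were 3.88 ± 0.53 and -0.36 ± 1.37 (SD, n = 3 each), a difference of -4.24 (SE 0.76, limma adjusted p = 0.0011) and a fold of 18.9 in the authors' deposited table, below that table's median of 23.3. Without knockdown sample 3 the difference was -3.48.

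On the deposited Ct, the 6 intact means ran from 19.9 ± 0.688 cycles for miR-200a and 21.2 ± 1.22 for miR-200c to 25.9 ± 1.02 cycles for miR-375 (SD, n = 3 each). In knockdown samples they lay between 30.4 cycles for miR-183 and 30.8 cycles for miR-205. The Ct are delta Ct plus the Ct of U6, so the knockdown Ct carry the fixed means too and are not readings free of the reference. Their order by intact level was miR-200a, miR-200c, miR-203, miR-183, miR-205 and miR-375, at ranks 1, 3, 16, 21, 45 and 58 of the 95 assays. Of neighbours in this order, miR-203 and miR-183 did not differ beyond their spread, since miR-183 minus miR-203 was -0.70 ± 0.91 (SD, n = 3) and above 0 in 1 of the 3 intact samples. Nor did miR-205 and miR-375, at a difference of 0.52 ± 0.70 (SD, n = 3). Across the other pairs, the order in intact samples was the same in every sample. miR-200a read above miR-183 by 3.87 ± 0.84, above miR-203 by 3.16 ± 1.32, above miR-205 by 5.44 ± 1.31 and above miR-375 by 5.96 ± 0.72 log2 units (SD, n = 3 each). miR-200c read above miR-183 by 2.56 ± 0.49 and above miR-375 by 4.65 ± 0.63 (SD, n = 3 each). In knockdown samples 0 of the 15 pairs kept 1 sign in all 3 samples. With both linear means of a pair fixed at 1, that count was set in advance and is no result. The order by size of the difference had ranks 1, 3, 16, 24, 44 and 58. With the linear knockdown means fixed at 1, it largely repeats the order by intact level and is no separate result.

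**Figure D4:**
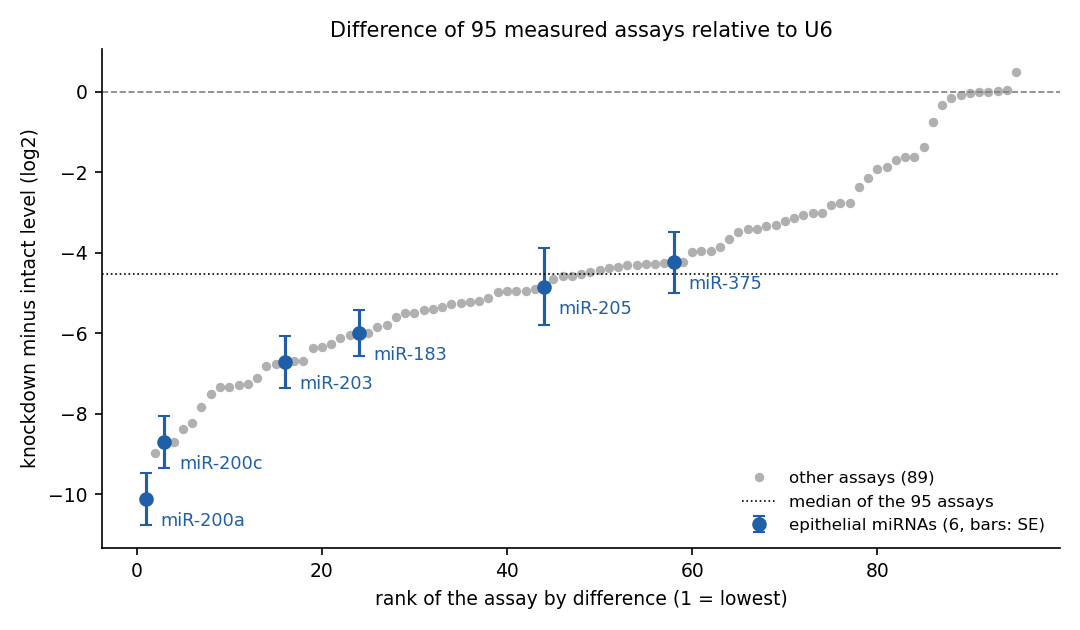
Knockdown minus intact level (log2) of the 95 measured assays, ordered by size, with the 6 epithelial miRNAs in blue (bars, SE) and the median of all assays as a dotted line. miR-200a and miR-200c stand at ranks 1 and 3, and miR-375, at rank 58, lies above the median of -4.54.

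The other assays at the top of the intact order were let-7i, of the let-7 family, at 8.84 ± 0.57, and miR-148a, known to promote osteoclast formation, at 8.44 ± 1.11 (SD, n = 3 each). At the bottom stood miR-293 at -0.71 ± 0.64 and miR-138 at -4.84 ± 0.78. The 6 epithelial miRNAs together made up 23.7%, 30.3% and 23.2% of the summed linear level of the 95 assays in intact samples 1 to 3. miR-200a alone made up 11.5%, 19.3% and 16.0%. In knockdown samples the share of the 6 was 2.56%, 3.34% and 3.95%. There the fixed means set the average sum of the 6, and they hold for 88 of the 95 assays in the total. The lower share is therefore no measured change. All these shares assume equal amplification in all assays, and the intact ones carry the doubt on intact levels given above.

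Most of the 6 miRNAs varied more between intact samples than the median assay did. The SD over the 3 intact samples was above the median of all 95 assays, 0.484 log2 units, for 5 of the 6, with miR-200a at 0.319 as the exception and miR-205 the highest at 1.21. Intact sample 1 was the highest for miR-183, miR-203, miR-205 and miR-375, and was the highest in 43.2% of all assays. Intact sample 3 was the lowest for miR-200c, miR-183, miR-205 and miR-375, against 35.8% of all assays. miR-200a and miR-200c were both highest in intact sample 2, as were 26.3% of all assays.

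The differences depended on the reference, and so did the number of the 6 that passed. The 6 were not tested against each other, and the intervals of neighbours overlap. When each sample was centred on its own mean Ct over the miRNAs with values, a value is set against the average change of the 95 assays, which the 88 assays with fixed means mostly make. On that scale miR-200a (-5.64, SE 0.64, limma adjusted p = 0.0012), miR-200c (-4.23, SE 0.63, adjusted p = 0.0019) and miR-203 (-2.24, SE 0.61, adjusted p = 0.023) lay below the average change. This is 3 of 6, where 20% of all assays passed below it and 20% above it. miR-183 was at -1.51 (95% interval -2.79 to -0.24, limma adjusted p = 0.058), miR-205 at -0.36 (95% interval -2.54 to 1.82) and miR-375 at 0.24 (95% interval -1.54 to 2.03), and these did not pass. The median of all assays moved from -4.54 to -0.059 by the centring, and that of the 6 from -6.36 to -1.88.

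Quantile normalization, which gives every sample the same distribution, left fewer calls. Applied to the levels, it kept miR-200a (-5.82, SE 0.96, limma adjusted p = 0.022) and miR-200c (-3.61, SE 0.84, limma adjusted p = 0.043), where 5.26% of all assays passed as lower and 8.42% as higher. Applied to the Ct values, a choice made after the data were seen, it kept miR-200a (-5.78, limma adjusted p = 0.024) but not miR-200c (-3.52, limma adjusted p = 0.065), where 4.21% of all assays passed as lower and 8.42% as higher. miR-203, miR-183, miR-205 and miR-375 did not pass in either, and miR-375 was at 0.31 and 0.24. Only miR-200a thus passed under U6, under the mean of the detected miRNAs and under both quantile normalizations. Leaving out knockdown sample 1 moved its difference relative to U6 to -10.72.

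**Figure D5:**
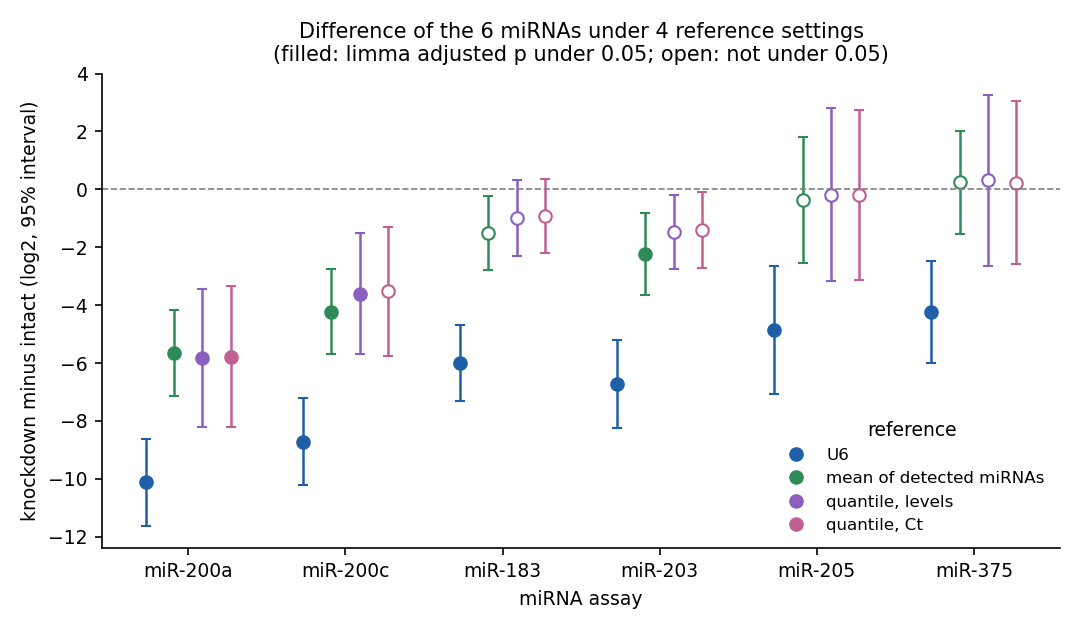
Knockdown minus intact difference (log2) of the 6 miRNAs under 4 reference settings, with 95% intervals that are not adjusted for the number of assays. Filled points passed limma at an adjusted p under 0.05, which miR-200a did in all 4 settings, and open points did not.

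Sample profiles were compared between each of the 6 and the other assays. Likeness was the root-mean-square difference of levels over the 6 samples after removing each assay's own mean, and a small value means a like profile. Against the mean profile of the 6, the nearest of the 89 other assays were let-7g (0.313 log2 units), miR-99b* (0.392) and miR-214 (0.485), where their median was 1.59. The knockdown Ct of miR-99b* are identical to those of miR-361. Among the 6 themselves, miR-183 (0.471) and miR-203 (0.522) lay near the mean profile, and miR-200a (1.85) and miR-375 (1.51) far from it, the one with a larger and the other with a smaller difference between groups. Most candidates lay outside the 6 (89 assays), and for none of the 6 was the nearest assay another of the 6. It was let-7i for miR-200a (0.726), miR-342-3p for miR-200c (0.740), miR-652 for miR-183 (0.389), miR-425 for miR-203 (0.536), miR-320 for miR-205 (0.930) and miR-145 for miR-375 (0.362). With knockdown means fixed, a like profile is in part a like intact level.

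Other markers place the 6 miRNAs within these sorted samples. Of 8 miRNAs listed for the myeloid and osteoclast lineage, 5 had values (miR-223, miR-142-5p, miR-21, miR-214 and miR-148a). The 3 others, miR-142-3p, miR-155 and miR-146a, were Null. All 5 were lower in knockdown samples (limma), with a median difference of -5.86. So were 84.2% of the 95 assays tested, and the median difference over all 95 was -4.54. The summed linear level of the 5 myeloid miRNAs ran from 302.4 to 1101 times U6 in intact and from 3.29 to 7.56 in knockdown samples. That of the 6 epithelial miRNAs ran from 1182 to 1852 in intact and from 5.72 to 6.38 in knockdown samples. With knockdown means fixed at 1, both knockdown sums average to the number of assays summed and are no measured amounts. In each intact sample the epithelial sum was thus above the myeloid one, on assay readings that are not corrected for primer efficiency. Most of the myeloid sum came from miR-148a and miR-214, at mean intact levels of 8.44 and 7.26, against 5.46 for miR-223. Whether the listed miRNAs are particular to myeloid cells was not tested. The sums cover 6 and 5 assays, the 3 Null myeloid assays have no bound, and intact levels carry the doubt given above. Which group of miRNAs was more abundant therefore cannot be told.

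Of 9 other epithelial miRNAs, including the 5 cluster partners, only the gut and liver miRNAs miR-192 and miR-215 had values. miR-215 stood at 6.60, 4.71 and 3.86 in intact samples, highest in sample 1 and lowest in sample 3 as were miR-183, miR-205 and miR-375. Its difference was -5.20 (SE 0.81, limma adjusted p = 0.00051). miR-192 was at 4.83, 4.21 and 3.82 in intact samples, with a difference of -4.38 (SE 0.56, limma adjusted p = 0.00017). miR-31 and miR-194 were Null.

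Markers of further cell types were also present. The liver miRNA miR-122 was at 6.90 ± 0.19 in intact samples (SD, n = 3), and miR-128, a miRNA abundant in brain, at 6.84 ± 0.41 (SD, n = 3), with miR-9 and miR-124 Null. The stromal miRNAs miR-143, miR-145 and miR-199a-3p had values and miR-199a-5p was Null. The values of miR-199a-3p are identical to those of miR-24 in all 6 samples, on Ct and on delta Ct, although the assays have different sequences. It is the only such pair among the 95 assays and holds none of the 6 epithelial miRNAs, and which of the pair was measured cannot be told. All 3 erythroid miRNAs had values, and of the muscle miRNAs miR-1 and miR-206 did, with miR-133a and miR-133b Null. The summed linear level in intact samples was 102.6 to 131.0 for liver, 83.7 to 145.0 for neural, 8.34 to 52.2 for muscle, 14.9 to 17.2 for erythroid and 114.5 to 296.9 for stromal markers. In knockdown samples the same sums ran from 0.268 to 1.76 for liver, 0.189 to 1.63 for neural, 0.988 to 2.92 for muscle, 1.44 to 5.02 for erythroid and 2.90 to 3.15 for stromal markers. Through the fixed means, each of these knockdown sums averages to the number of measured assays on its list and is no measured amount. Without miR-199a-3p the stromal sum was 83.2 to 260.6 in intact samples. Of the 10 measured miRNAs on these 5 lists, 8 were lower in knockdown samples and 0 higher (limma), and miR-206 and miR-486 did not pass. Over all 95 assays 84.2% were lower and 0 higher, so this count is near the background. Epithelial readings thus stood beside those of miR-122, miR-128 and stromal markers, and the part of other cells in them was not tested. The liver and neural sums rest on 1 miRNA each, and the other 2 neural miRNAs were Null. The array holds no messenger RNAs, so the sort itself could be checked on miRNAs only.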

How the data were processed

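MicroRNAs were measured by SYBR Green PCR arrays in 3 intact and 3 knockdown osteoclast samples. Per the labels' protocols, Trizol RNA was reverse transcribed (QuantiMir kit) and amplified over 40 cycles on a ViiA7 instrument. The authors deposited Ct values for 717 wells on 2 plates, delta Ct values on a log2 scale for 709 assays, and folds of intact over knockdown. Per the file headers, U6 is the reference. Ct minus delta Ct was checked to be 1 constant per sample and plate, equal to the Ct of 1 well per plate. Neither the Ct threshold nor the rule for Null was given in the sources used here. In plate row E, 48 well IDs deposited in scientific notation were restored.

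Assays entered the test with a Ct below 35 in 3 or more samples, which all 95 with values met. The groups were compared by limma 3.58.1 under R 4.3.3 (lmFit, then eBayes, no covariate, two-sided, Benjamini-Hochberg over 95 assays, threshold 0.05). The step was tested on simulated independent normal values. Fixed knockdown means were not simulated, so that test does not cover them. Alternatives were other references, a Ct limit of 32, eBayes with trend and robust, a replicate block and leaving out each sample. A PCR array has no read depth, and the number of samples limits the precision. Named were the 6 miRNAs, their partners and star strands, fixed marker lists, the assays nearest in profile, and those at the ends of the intact order. The miRNAs and lists were chosen with earlier results of these data known. Sequences are those deposited with the assays, placed on RefSeq hairpins of GRCm38.p6.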

Additional observations from a re-analysis of the deposited data

How the results depend on the processing

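Relative to U6, all 6 miRNAs stayed lower in knockdown samples and past the threshold with U6 of plate 1 for both plates, no Ct limit, a Ct limit of 32, eBayes with trend and robust, and without any 1 sample. With the replicate number as a block (replicate block) 6 of 6 passed and 82 of 95 assays in all, against 80 without it, with 0 calls lost among the 6. The numbers were not taken as pairing, since the labels do not say that they pair samples. Deviations of same-numbered samples from their group means correlated at 0.025, 0.101 and 0.0809 over 95 assays. Those of differently numbered samples ran from -0.085 to 0.027, and knockdown sample 1 correlated best with intact sample 2 (0.027). With 3 samples per group, these values cannot decide whether the samples are paired. Without any 1 sample the median difference of the 6 ran from -6.61 to -5.91, that of all assays from -4.77 to -4.41 and the number of lower assays from 75 to 81. With no reference (minus the deposited Ct, which carry the fixed knockdown means too) the medians were -6.97 for the 6 and -5.15 for all assays. With samples centred on their measured miRNAs, 3 of the 6 passed, with medians of -1.88 and -0.059, and 19 assays passed as lower and 19 as higher. With quantile normalization of the levels 2 of the 6 passed, with medians of -1.23 and -0.14, and 5 assays were lower and 8 higher. With quantile normalization of the Ct, added after the data were seen, 1 of the 6 passed, with medians of -1.17 and -0.19, and 4 assays were lower and 8 higher. In these 3 settings miR-375 turned to 0.24, 0.31 and 0.24 (limma adjusted p from 0.86 to 0.974), and each setting removes the shift shared by most assays. Averaging on the linear scale, also added later, gave a median of -6.51.

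The number of samples, the choice of reference, the fixed knockdown means and the unknown rule for Null limit these values. A partner that is Null has no bound, and a level near U6 in knockdown samples is not a measured one.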
